A study of Mus musculus with 23 samples.

Results

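Splenic stroma and endothelium genes were followed in mouse RNA-seq libraries made from small inputs. The set comprised 9 genes chosen by symbol, Pecam1, Cdh5, Stab2, Vwf, Sparc, Pdgfrb, Cxcl13, Ccl19 and Madcam1, and all 9 were found among the 22488 gene symbols of the count table. The 23 libraries measured oligo-dT primed cDNA that was cut and tagged with Tn5 transposase. CD3+ T cells from spleen gave 12 libraries, 3 for each input of 100, 500, 1000 or 10000 cells. Diluted RNA made up the remaining 11, of which 2 held 0.1 ng and 3 per amount held 0.5, 1 or 5 ng. The labels give C57 as the strain and 6-18 week as the age for every sample and name no treatment or engineered allele. Whether the replicates of a group are separate animals or cultures is not labelled, so p-values measure the spread between these libraries, which may be technical. The series design describes the diluted RNA as spleen RNA, while its sample labels name raw 264.7, a mouse macrophage line. Inputs in cells and in ng are not equal amounts of RNA.

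The spleen filters blood through open cords and through sinuses lined by endothelial cells, and it holds lymphoid zones built on a network of fibroblastic reticular cells. Endothelial cells are joined by adhesion molecules and, in the sinuses, carry scavenger receptors that clear waste from the blood. Reticular cells secrete chemokines that place B cells in follicles and T cells in their own zone, and lymphotoxin made by lymphocytes keeps those chemokines on through non-canonical NF-kB signalling. T cells purified from the organ are separated from these fixed cells. The comparison asked at what level genes of the fixed cells were counted in T cell libraries and in the diluted RNA, and whether the level moved with the input.

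Counts per library summed to between 1737067 and 7908638, so 1 count was worth 0.126 to 0.576 CPM (the count scaled by the library total). The diluted RNA carried genes of many blood cell types, not of macrophages alone. Whether the series design or the sample labels name its source correctly was not tested. Its neutrophil list of 12 genes summed to 3556 to 5130 CPM and its erythroid list of 8 genes to 2571 to 4495 CPM. Its B cell list of 12 genes summed to 23045 to 28532 CPM, its macrophage list of 14 genes to 3755 to 4473 CPM and its T cell list of 14 genes to 1824 to 1963 CPM. In 11 of the 12 T cell libraries the same lists summed to 988 to 1627 CPM for B cells, 61.3 to 217 CPM for macrophages and 7898 to 8543 CPM for T cells. Replicate 3 of the 100-cell group stood apart, with 12650 CPM for B cells, 1963 CPM for macrophages and 4946 CPM for T cells. The sum of 4 Y-linked genes was 184 CPM in it, 0 to 4.33 CPM in the remaining 11 T cell libraries and 287 to 456 CPM in the diluted RNA. That library went against its label. Each 100-cell set of single values below ends with it, and the 100-cell group mean includes it. Fits that use it are also given without it for Pecam1 and for the T cell slopes of Pdgfrb and Vwf, but not for every member. Shares of all genes called include it unless stated. The Y-linked level differed between the remaining T cell libraries and the diluted RNA. Sex and animal of the source therefore cannot be told apart from material in their comparisons.

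Odorant receptor genes (Olfr), which act in the nose, gave the background level. T cell libraries had counts for 54.3% to 90.4% of 1134 Olfr genes, with a median of 1.04 to 1.94 CPM. Libraries of diluted RNA had counts for 10.4% to 25.0% of them, and the median was 0. Since long genes collect more counts, each member was set against the 95th percentile of the Olfr genes in its own library on a scale of CPM per kilobase of exon. That percentile was 1.60 to 4.58 CPM per kb in T cells and 0.200 to 2.20 CPM per kb in diluted RNA. A member at a few CPM therefore stood inside the Olfr range in T cells and could stand above it in diluted RNA.

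**Figure D1:**
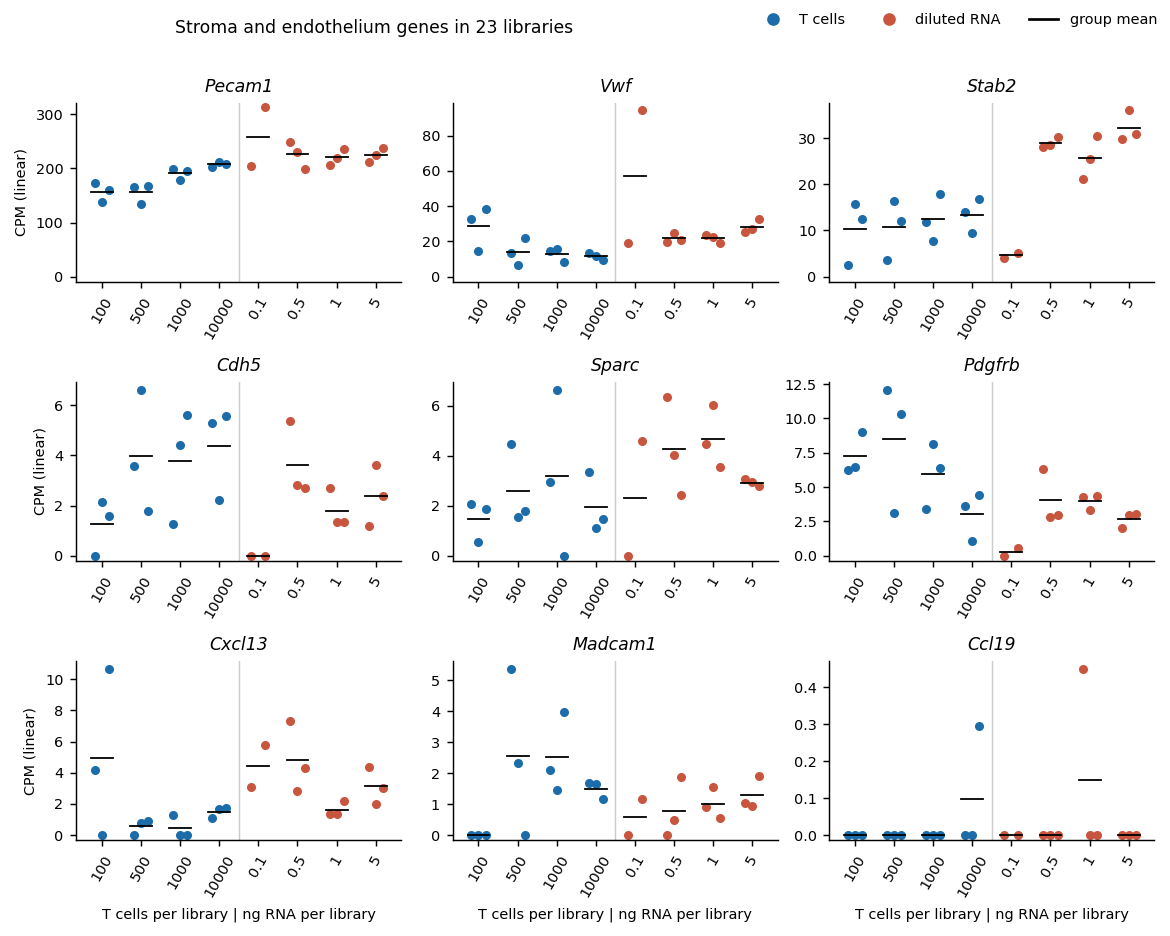
CPM of each of the 9 genes in every library (points; linear axes that differ between panels) by input, with T cells on the left and diluted RNA on the right of each panel and a bar at the group mean. Pecam1 is counted at 134 to 313 CPM in all 23 libraries, while Sparc, Cdh5, Madcam1 and Ccl19 stay below 7 CPM in every library.

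Pecam1 (CD31), an adhesion molecule of endothelial junctions that platelets, myeloid cells and lymphocytes also carry, was the member with the highest level in both materials. At 10000 T cells its level was 203, 212 and 208 CPM in replicates 1 to 3, and at 5 ng it was 213, 224 and 237 CPM. The T cell values all lay below the RNA values, by a narrow margin (211.98 against 212.67 CPM at the closest). At 1000 T cells Pecam1 reached 199, 178 and 195 CPM, against 206, 219.8 and 236 CPM at 1 ng. At 500 T cells it was 166, 134 and 168 CPM, against 248, 230.5 and 199 CPM at 0.5 ng. At 100 T cells it was 174, 138 and 159.5 CPM, against 204 and 313 CPM at 0.1 ng. The groups did not overlap at any of these 4 steps, and Pecam1 was the only member above every Olfr gene per kb in all 12 T cell and all 11 RNA libraries. The share of all genes whose groups did not overlap was not computed, so such separations, here and for the members below, are descriptions only.

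Stab2 (stabilin-2), the hyaluronan scavenger receptor of sinusoidal endothelium, was lower in T cells than in diluted RNA at the upper 3 steps. Its level was 13.9, 9.37 and 16.8 CPM at 10000 T cells and 29.8, 36.0 and 30.9 CPM at 5 ng. At 1000 T cells it was 11.8, 7.73 and 18.0 CPM, against 21.1, 25.5 and 30.6 CPM at 1 ng. The same was seen at 500 T cells, with 3.57, 16.3 and 12.1 CPM against 28.1, 28.6 and 30.2 CPM at 0.5 ng. No T cell library reached the lowest RNA library in these 3 pairs of groups. At the lowest step the order turned: 100 T cells gave 2.60, 15.7 and 12.5 CPM, the last from the library that stood apart, and 0.1 ng gave 4.08 and 5.18 CPM. Those groups overlapped with that library and without it. In bulk libraries fewer cells of a type and less RNA per cell cannot be told apart. Stab2 exceeded the Olfr level per kb in 9 of 11 RNA libraries, all but the 2 at 0.1 ng, and in 1 of 12 T cell libraries. On CPM with no division by length it did so in 10 T cell libraries.

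Vwf (von Willebrand factor), a clotting glycoprotein stored in endothelial cells, megakaryocytes and platelets, followed Stab2 at the largest input. Its level was 13.7, 11.6 and 9.41 CPM at 10000 cells, below the 25.3, 27.1 and 32.5 CPM at 5 ng. At 1000 T cells its level was 14.4, 15.8 and 8.39 CPM, below the 23.5, 22.3 and 19.4 CPM at 1 ng. The 500-cell values of 13.4, 6.60 and 22.0 CPM overlapped with 19.8, 24.6 and 21.1 CPM at 0.5 ng. At 100 cells Vwf read 32.8, 14.6 and 38.3 CPM, the last from the library that stood apart, and the 0.1 ng libraries read 19.4 and 94.4 CPM. The 94.4 CPM of replicate 2 at 0.1 ng was the highest Vwf level of the 23 libraries. Vwf exceeded the Olfr level per kb in 10 RNA libraries and in 0 T cell libraries, and on CPM with no division by length in 11 RNA and 11 T cell libraries.

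Cdh5 (VE-cadherin), the cadherin of endothelial junctions, was near background in T cells. Its level was 5.30, 2.21 and 5.58 CPM at 10000 T cells, which overlapped with 1.17, 3.60 and 2.40 CPM at 5 ng. Group means in T cells ran from 1.25 ± 1.12 CPM (SD, n = 3) at 100 cells to 4.36 ± 1.87 CPM at 10000 cells. The 100-cell mean includes the library that stood apart, at 1.60 CPM. In diluted RNA they were 3.64 ± 1.51, 1.80 ± 0.772 and 2.39 ± 1.22 CPM at 0.5, 1 and 5 ng, and both 0.1 ng libraries had 0 counts. No T cell library passed the Olfr level per kb for Cdh5, whereas 9 RNA libraries did. A higher mean CPM in T cells thus went with a lower standing against the Olfr genes of the same libraries.

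**Figure D2:**
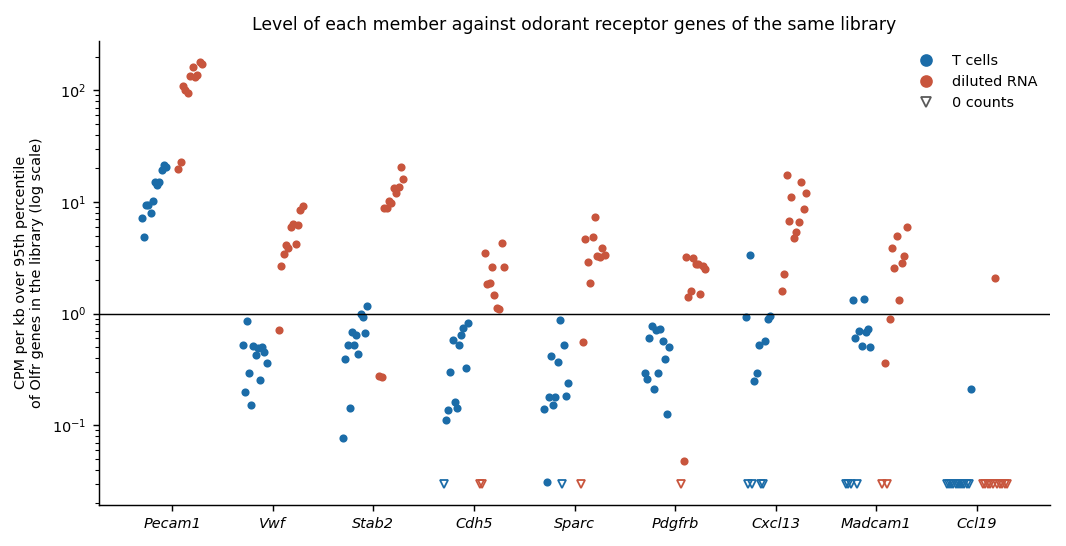
Level of each gene in CPM per kb divided by the 95th percentile of Olfr genes in the same library (log axis), with 12 T cell and 11 RNA libraries per gene, a line at 1 and open triangles for 0 counts. Pecam1 lies above the line in every library, and Sparc, Cdh5, Pdgfrb and Vwf lie below it in every T cell library and above it in 9 or 10 RNA libraries.

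Pdgfrb, the receptor for PDGF-B on pericytes and fibroblastic stroma, was counted in all 12 T cell libraries. Its level was 6.24, 6.49 and 9.04 CPM at 100 cells (the last from the library that stood apart), 12.1, 3.11 and 10.3 CPM at 500, 3.38, 8.10 and 6.39 CPM at 1000 and 3.62, 1.10 and 4.41 CPM at 10000. These groups overlapped in part, and the slope over cell number did not pass (log2 -0.69 per 10-fold, SE 0.397, edgeR adjusted p = 0.474, and 0.518 without that library). In diluted RNA it was 4.05 ± 1.99, 3.99 ± 0.558 and 2.67 ± 0.544 CPM at 0.5, 1 and 5 ng (SD, n = 3), and the 0.1 ng libraries held 0 and 1 count. T cell and RNA values overlapped at the 3 upper steps, and at the lowest every T cell library lay above both RNA libraries. All 12 T cell libraries lay under the Olfr level per kb, and 9 of 11 RNA libraries lay above it.

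Sparc (osteonectin), a collagen-binding matrix protein of stromal cells that megakaryocytes also make, stayed low in both materials. Counts per library ran from 0 to 18 in T cells and from 0 to 27 in diluted RNA. At 10000 T cells its level was 3.35, 1.10 and 1.47 CPM, and at 5 ng it was 3.07, 2.94 and 2.78 CPM. These values overlapped, as they did at every other step. Sparc passed the Olfr level per kb in 0 T cell libraries and in 9 RNA libraries.

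Cxcl13, the chemokine of follicular dendritic and marginal reticular cells that draws B cells through Cxcr5, was counted in all 11 RNA libraries and in 8 of 12 T cell libraries. Its level was 1.12, 1.65 and 1.76 CPM at 10000 T cells and 4.38, 2.00 and 3.03 CPM at 5 ng. At 1000 T cells 2 libraries held 0 counts and the other was at 1.27 CPM, below the 1.34, 1.34 and 2.18 CPM at 1 ng. At 500 T cells the values were 0, 0.777 and 0.900 CPM, and at 0.5 ng they were 7.33, 2.84 and 4.32 CPM. At these 3 steps the T cell values all lay below the RNA values. At the 1000-cell step that rests on 3, 0 and 0 counts against 6, 6 and 8. At 100 cells the libraries read 4.16, 0 and 10.6 CPM, and the last, from the library that stood apart, was the highest Cxcl13 level of all. It was also the only T cell library above the Olfr level per kb, which all 11 RNA libraries passed.

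Ccl19, the chemokine that guides T cells and dendritic cells through Ccr7, was almost uncounted. The 12 T cell libraries held 1 count in all, in replicate 3 of 10000 cells, and the 11 RNA libraries held 2, in replicate 1 of 1 ng. That is 0.0305 CPM over the T cell libraries (exact Poisson 95% interval 0.000773 to 0.170) and 0.0395 CPM over the RNA libraries (0.00479 to 0.143), and the intervals cover counting error only. Madcam1, the addressin of marginal sinus lining cells that binds the integrin of Itga4 and Itgb7, had 53 counts in each material. Its level was 1.67, 1.65 and 1.18 CPM at 10000 T cells and 1.02, 0.934 and 1.90 CPM at 5 ng, and these values overlapped. All 3 libraries of 100 cells had 0 counts of Madcam1, and the 500-cell libraries read 5.36, 2.33 and 0 CPM. Madcam1 passed the Olfr level per kb in 2 T cell and 7 RNA libraries, and on CPM with no division by length in 0 and 5. At 1 ng its passes per kb rested on 4, 7 and 2 counts. The RNA library with 2 counts of Ccl19 also passed that level per kb, so a pass can rest on few counts.

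Promoter sequences of Madcam1, Cxcl13 and Ccl19, targets of lymphotoxin signalling, are shown because its receptor and NF-kB subunits differed between the materials, and that of Stab2 as the member with the most calls. The table of RefSeq promoters (GRCm38.p6) held 5 of the members looked up, and each window covers the 250 bases before the start, 5′ to 3′ on the gene's strand. The windows are chr10:79664309-79664558 (plus strand) for Madcam1, chr5:95956689-95956938 (plus strand) for Cxcl13, chr4:42756366-42756615 (minus strand) for Ccl19 and chr10:87007943-87008192 (minus strand) for Stab2. Capitals mark matches to an NF-kB motif of GGG and CC with any 5 bases between, searched on both strands, with overlapping matches joined.
Madcam1: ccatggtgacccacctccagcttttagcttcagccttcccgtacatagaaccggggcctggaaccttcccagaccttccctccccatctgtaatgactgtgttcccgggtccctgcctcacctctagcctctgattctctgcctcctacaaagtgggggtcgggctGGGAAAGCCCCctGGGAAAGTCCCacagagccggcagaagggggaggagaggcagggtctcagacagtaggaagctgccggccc
Cxcl13: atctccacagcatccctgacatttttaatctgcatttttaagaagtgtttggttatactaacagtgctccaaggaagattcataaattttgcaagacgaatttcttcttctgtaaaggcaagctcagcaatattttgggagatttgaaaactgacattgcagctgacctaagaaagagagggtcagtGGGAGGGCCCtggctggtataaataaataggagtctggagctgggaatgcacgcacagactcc
Ccl19: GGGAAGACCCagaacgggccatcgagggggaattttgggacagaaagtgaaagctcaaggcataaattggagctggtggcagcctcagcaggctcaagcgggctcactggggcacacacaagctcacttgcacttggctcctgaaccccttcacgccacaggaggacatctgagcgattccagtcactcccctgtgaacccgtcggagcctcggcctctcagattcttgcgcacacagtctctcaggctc
Stab2: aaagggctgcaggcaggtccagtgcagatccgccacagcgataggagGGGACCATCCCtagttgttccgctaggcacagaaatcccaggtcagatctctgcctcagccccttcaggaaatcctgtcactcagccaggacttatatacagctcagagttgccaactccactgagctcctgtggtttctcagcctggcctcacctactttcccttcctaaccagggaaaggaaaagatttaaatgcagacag
Madcam1 held 2 separate stretches, and Cxcl13, Ccl19 and Stab2 held 1 each. This loose motif occurred in 45.8% of 32851 promoter windows of the same length, so a match is common and marks no binding site. The window of Sparc also held 1 stretch and is not printed, nor are promoters of Pecam1, Cdh5, Vwf and Pdgfrb.

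Among the members, the order of levels per kb was led by Pecam1 in each of the 8 groups, without overlap with the next. At 5 ng Pecam1 stood at 36.1 CPM per kb, followed by Stab2 at 3.68, Cxcl13 at 2.73 and Vwf at 1.76. Stab2 and Cxcl13 overlapped, as did Cxcl13 and Vwf, and Vwf lay clear of Madcam1 at 0.895 CPM per kb. Madcam1, Sparc at 0.773, Cdh5 at 0.569 and Pdgfrb at 0.488 CPM per kb overlapped with their neighbours, and Ccl19 was at 0. At 10000 T cells Pecam1 stood at 33.3 CPM per kb. Stab2 followed at 1.53 CPM per kb, and from there to Ccl19 at 0.113 each neighbour overlapped with the next. These orders depend on the length used, the union of exons of a gene. For Vwf that is 16064 bases, against 8834 bases in its longest transcript.

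T cells and diluted RNA were compared at each step with edgeR's quasi-likelihood test, fitted over all genes that passed a filter on low counts, with Benjamini-Hochberg adjustment and a threshold of 0.05. The 4 comparisons share no library. In 10000 T cells against 5 ng, 3 of the 7 members tested were called, all lower in T cells. The background was high: 56.0% of 14425 genes tested were called, 27.3% lower and 28.7% higher in T cells. Stab2 was 2.61-fold lower (log2 change -1.39, SE 0.206, adjusted p = 4.77e-08) and Vwf 2.64-fold lower (log2 change -1.40, SE 0.217, adjusted p = 1.18e-07). Pecam1 was 1.17-fold lower (log2 change -0.23, SE 0.0663, adjusted p = 0.00288). With library totals alone in place of TMM factors, which moved the median log2 change of all genes from 0.03 to 0.15, the change of Pecam1 was -0.10 (adjusted p = 0.175 by the same edgeR test) and the call was lost. Cdh5 (log2 change 0.74, SE 0.552), Sparc (-0.67, SE 0.593), Pdgfrb (0.06, SE 0.569) and Cxcl13 (-1.15, SE 0.613) did not pass. Ccl19 and Madcam1 were not tested at any step, because the filter removed them.

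At the middle steps fewer members passed. In 1000 T cells against 1 ng, 1 of 5 members tested was called beside 40.0% of 12656 genes, 20.1% higher and 20.0% lower in T cells. Stab2 was 2.07-fold lower in T cells (log2 change -1.05, SE 0.337, edgeR adjusted p = 0.0151). That call was lost without replicate 2 of 1000 cells (edgeR adjusted p = 0.0701) and without replicate 3 of 1 ng (edgeR adjusted p = 0.0679). Vwf (log2 change -0.77, SE 0.333) and Pecam1 (-0.22, SE 0.100) missed the threshold there and passed it with DESeq2. In 500 T cells against 0.5 ng, 2 of 6 members tested were called beside 37.1% of 13001 genes, 19.0% higher and 18.1% lower in T cells. Stab2 was 2.71-fold lower in T cells (log2 change -1.44, SE 0.431, edgeR adjusted p = 0.0113) and Pecam1 1.46-fold lower (log2 change -0.55, SE 0.130, edgeR adjusted p = 0.00199).

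**Figure D3:**
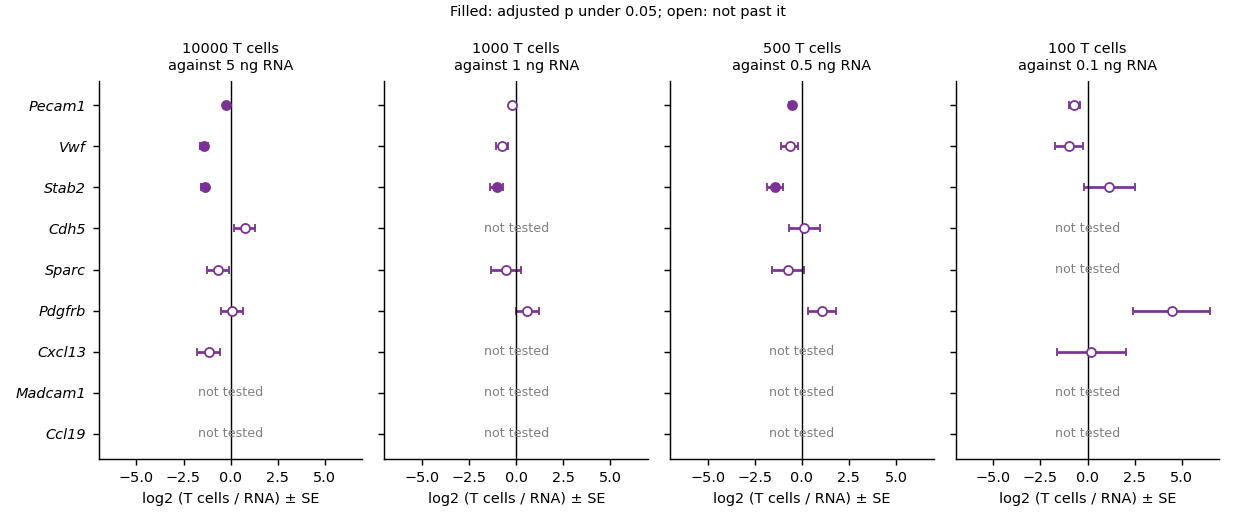
Log2 change of each member between T cells and diluted RNA (points, with bars of 1 SE) at the 4 input steps, filled where the edgeR adjusted p was under 0.05. Stab2 is below 0 and filled at the upper 3 steps, and no point is filled at 100 cells against 0.1 ng.

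At 100 T cells against 0.1 ng, 0 of 5 members tested were called by edgeR, DESeq2 or voom with quality weights, beside 0.0535% of 13073 genes in edgeR, all higher in T cells. The largest change of the 5 was that of Pdgfrb, at log2 4.47 (SE 2.03, edgeR adjusted p = 0.329), set against 0 and 1 count at 0.1 ng. Pecam1 alone had an unadjusted p under 0.05, with a log2 change of -0.70 (SE 0.292, edgeR adjusted p = 0.297). Without the 100-cell library that stood apart 545 genes were called and still 0 of the 3 members tested, and Pecam1 stayed at -0.70 (SE 0.306, edgeR adjusted p = 0.243). Vwf moved with 1 library: its log2 change was -0.97 (SE 0.731) and turned to 0.57 without replicate 2 of 0.1 ng. The low call rate of all genes at this step limits what the members' 0 calls can show.

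Within each material the same edgeR test was run on the slope against log10 input. In T cells 0 of 5 members tested were called, beside 0.692% of 14008 genes, 0.393% rising and 0.300% falling with input. Pecam1 had a slope of 0.22 log2 per 10-fold more cells (SE 0.0751, edgeR adjusted p = 0.200), and Vwf had a slope of -0.63 (SE 0.234, edgeR adjusted p = 0.231). Without the 100-cell library that stood apart the slopes were 0.23 (SE 0.0799, edgeR adjusted p = 0.184) and -0.45 (SE 0.250, edgeR adjusted p = 0.441). With all 12 libraries those 2 members had an unadjusted p under 0.05, and DESeq2 and voom with quality weights called 0. In diluted RNA 0 of 7 members tested were called, beside 5.12% of 12375 genes, 2.01% rising and 3.10% falling with input. Stab2 came nearest, with a slope of 1.06 (SE 0.331, edgeR adjusted p = 0.0680), and was the only member with an unadjusted p under 0.05. DESeq2 called it (adjusted p = 0.00818) and voom with quality weights called 0 members. The slope of Stab2 fell to 0.22 without the 0.1 ng group, whose libraries held 8 and 9 counts. The slope of Vwf in diluted RNA turned sign without replicate 2 of 0.1 ng. A test over all 23 libraries of whether slopes differed between the materials counted the input as steps 1 to 4, so its unit is log2 per step and not per 10-fold. It called 0 of 7 members, beside 1.74% of 16696 genes. Pecam1 had the smallest p (difference 0.18 per step, SE 0.0681, edgeR adjusted p = 0.158). Without the 100-cell library that stood apart 0 of 7 were called, beside 301 of 16376 genes. The difference for Pecam1 was then 0.17 per step (SE 0.0701, edgeR adjusted p = 0.196).

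Of 28 genes in the endothelium list, 19 were tested at 10000 T cells against 5 ng, of which 7 were higher and 4 lower in T cells. That is 57.9% called, beside 56.0% of all genes tested, so the share is near the background. The median log2 change was 0.73 beside 0.03 over all genes tested. Of the 4 lower genes 3 were the members Stab2, Vwf and Pecam1. Without the members 7 of 15 were higher and 1 was lower, with a median of 1.08. That 1 was Esam, an adhesion molecule of endothelium and platelets (log2 change -1.74, SE 0.619). The higher genes were Eng, Aplnr, Emcn, Tek, Flt1, Ptprb and Stab1. Some were near 0 in diluted RNA and could pass the filter on low counts only through the T cell libraries. Emcn had 5.04 ± 1.90 against 0 CPM and Tek 5.50 ± 2.67 against 0.581 ± 0.522 CPM. Esam, at 1.47 ± 1.87 against 4.66 ± 1.39 CPM, leaned on diluted RNA instead. The counts by direction and the medians of this list were thus partly set by the filter. Eng (endoglin), a TGF-beta co-receptor, had 31.7 ± 2.82 CPM in the T cell and 12.4 ± 2.11 CPM in the RNA libraries (SD, n = 3). Flt1 had 9.15 ± 1.90 and 3.56 ± 1.01 CPM and Ptprb 7.14 ± 3.43 and 1.52 ± 0.330 CPM. In the same comparison 208 of 213 Olfr genes tested were higher in T cells, with a median log2 change of 4.86. The filter removed 921 of the 1134 Olfr genes, and a gene near 0 in diluted RNA could pass only through its T cell counts. That share and median were therefore largely set by the filter. The part of the Olfr background in the rises of endothelial genes was not tested. Pecam1 and Eng were the only 2 of the 28 genes above the Olfr level per kb in all 3 libraries of 10000 cells, against 12 of 28 at 5 ng. The summed level of the list was 334 to 358 CPM at 10000 cells and 333 to 356 CPM at 5 ng. Most of that sum was Pecam1, which lymphocytes also carry, at 208 ± 4.35 and 225 ± 12.4 CPM (SD, n = 3).

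**Figure D4:**
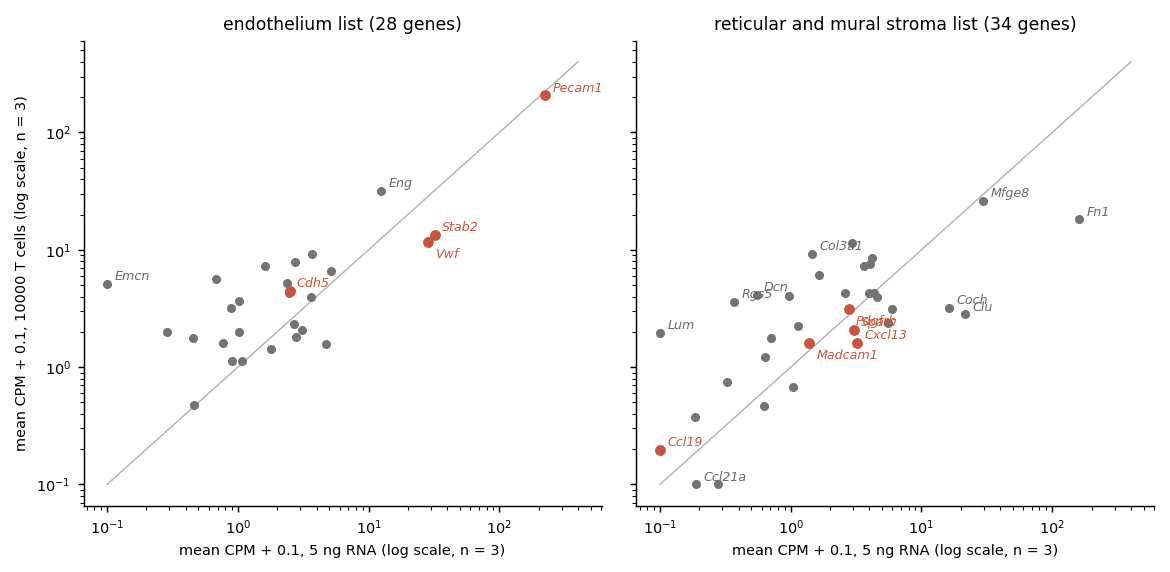
Mean CPM plus 0.1 at 10000 T cells against 5 ng RNA (log axes, n = 3 each) for the genes of the endothelium list (left) and the reticular and mural stroma list (right), members in red and a line where both are equal. Pecam1 lies near the line, Stab2 and Vwf below it, and Fn1, Clu and Coch below it in the stroma list.

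Of 34 genes in the reticular and mural stroma list 22 were tested, of which 7 were higher and 4 lower in T cells, with a median log2 change of 0.02. The share called was 50.0%, beside 56.0% of all genes tested, and no member in this list was called. Fn1 (fibronectin), which macrophages also make, had 18.1 ± 5.05 CPM at 10000 cells and 161 ± 18.7 CPM at 5 ng (SD, n = 3; log2 change -3.27, SE 0.130). Coch was at 3.10 ± 0.663 and 16.2 ± 3.12 CPM, and Clu and Bgn were the other lower genes. Those higher in T cells were Col3a1, Rgs5, Il7, Pdgfra, Col1a2, Cspg4 and Dcn. Of these, Rgs5 and Dcn were near 0 at 5 ng (0.271 ± 0.0200 and 0.449 ± 0.306 CPM). They could pass the filter on low counts only through the T cell libraries. Mfge8, a milk fat globule protein that bridges dying cells to phagocytes, had 25.9 ± 2.68 and 29.7 ± 3.53 CPM. It was the only gene of the 34 above the Olfr level per kb in all 3 libraries of 10000 cells, against 19 of 34 at 5 ng. The summed level was 134 to 158 CPM at 10000 cells and 263 to 301 CPM at 5 ng. Fn1 carried that gap: without it the other 33 genes summed to 121 to 141 CPM and 123 to 129 CPM.

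Partners of the members, a list of 19 receptors, ligands and signalling genes, had 16 tested at this step, with 4 higher and 6 lower in T cells (62.5% called, beside 56.0% of all genes). Ccr7, the receptor of Ccl19 on T cells, had 588 ± 35.1 CPM in the T cell and 249 ± 6.85 CPM in the RNA libraries (SD, n = 3; log2 change 1.13, SE 0.0538). Cxcr5, the receptor of Cxcl13 on B cells, was lower in T cells, at 43.3 ± 6.73 against 352 ± 1.83 CPM (log2 change -3.14, SE 0.0832). For Madcam1, the integrin chain Itgb7 was higher (log2 change 1.34, SE 0.0469) and Itga4 lower (log2 change -0.54, SE 0.0570). Ltb, a lymphotoxin chain made by lymphocytes, was slightly higher (log2 change 0.29, SE 0.0541), and so was the kinase gene Map3k14 (0.33, SE 0.0872). The lymphotoxin receptor gene Ltbr, which stroma and myeloid cells carry, was lower, at 0.764 ± 0.662 against 14.4 ± 2.22 CPM (log2 change -4.33, SE 0.472). The NF-kB genes Relb (log2 change -0.74, SE 0.108) and Nfkb2 (-0.96, SE 0.0736) were lower too, as was Ctnnb1.

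Cell types that share members moved with the comparison. Of 12 platelet and megakaryocyte genes, 10 were tested at 10000 T cells against 5 ng, with 7 lower and 1 higher in T cells (80.0% called, beside 56.0% of all genes). Ppbp, a platelet chemokine, had 0.933 ± 0.624 CPM in the T cell and 22.7 ± 2.58 CPM in the RNA libraries (SD, n = 3). It could pass the filter on low counts only through the RNA libraries. Itga2b, the platelet integrin chain, was at 7.01 ± 1.87 and 27.7 ± 1.97 CPM, and Itgb3 was the higher one. The platelet list summed to 93.6 to 175 CPM in the T cell libraries other than replicate 3 of 100 cells, 245 CPM in that library and 117 to 255 CPM in diluted RNA. All 14 macrophage, 12 neutrophil, 12 B cell and 8 erythroid genes tested were lower in T cells, and all 14 T cell genes were higher. Their part in the differences of Vwf, Pecam1 and Sparc was not tested.

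The genes most like each member were found by Pearson's r of log2(CPM + 1) across the 23 libraries, among 11143 or 11144 genes with a mean of at least 5 CPM. The libraries differ in material, input and depth, so r is a description with no test. Stab2 was most like Ckap2l (r = 0.868), Fignl1 (0.856) and Sumo3 (0.848). Pecam1 was most like Dock10 (r = 0.867), Cpped1 (0.854) and Otulin (0.848), and Vwf like Palm (0.861), Cptp (0.858) and Aoah (0.853). For Cdh5 the leading gene was Trim21 (r = 0.827), for Pdgfrb Cachd1 (0.835) and for Cxcl13 Ppm1k (0.844). Sparc and Madcam1 reached lower values, with Vat1 at 0.733 and Pias2 at 0.736. Of the members, Pecam1, Stab2 and Vwf reached the mean of 5 CPM and could have been found for another, and none was. Without the 100-cell library that stood apart, r of the 24 pairs ran from 0.693 to 0.868 and moved by at most 0.0834.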

How the data were processed

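The authors deposited whole-number counts per gene for 23 libraries, not normalized. The build mm8, the aligner HISAT2 2.1.0 and the counter featureCounts (no version) are named, per the submitters' processing notes. Read counts are not independent molecules, and counting intervals cover counting error only. Totals ran from 1737067 to 7908638 counts per library.

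From these counts CPM were computed, and CPM per kb with the union of exons in GENCODE M21, which gave 22459 symbols (99.9%) a length. That annotation is of another build than the one named. Comparisons of groups used edgeR 4.0.16 in R 4.3.3 (TMM, filterByExpr, quasi-likelihood test, Benjamini-Hochberg over all genes tested, threshold 0.05), with only the compared libraries in a fit. Within a material, log10 of the input was a numeric term. Tests were tested on simulated data. Alternatives used DESeq2 1.42.0, its size factors, library totals alone, no filter, limma 3.58.1 (voomWithQualityWeights), the replicate number as a block, the lowest input left out of slopes, and each replicate left out. A length from the longest transcript, the test of slopes between materials, its repeat and the likeness without replicate 3 of 100 cells, and lists without Fn1 or the members were added after seeing the data. Inputs in cells and ng were paired by step.

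The members, 10 other gene lists and all tests were chosen with earlier results of these data known. All 9 members are named, with up to 3 genes of each other list by mean CPM and the 3 genes most like each member with a mean of at least 1 CPM. Other genes called in a list were named after their values were seen. Python 3.11.15 was used for levels and figures.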

Additional observations from a re-analysis of the deposited data

How the results depend on the processing

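Calls over all genes depended on the processing at the low inputs. At 100 T cells against 0.1 ng, 7 genes were called, against 3 with DESeq2 size factors, 696 with no filter, 684 with DESeq2, 354 with voom with quality weights and 0 to 545 with 1 replicate left out. The slope over T cell number called 97 genes, against 188 with no filter, 269 with DESeq2, 384 with voom, 207 without the 100-cell group and 10 to 124 with 1 replicate left out. The slope over RNA amount called 633 genes, against 1413, 1714 and 283 with no filter, DESeq2 and voom, 177 without the 0.1 ng group and 342 to 683 with 1 replicate left out. The cause was not tested. Members called at 1000 T cells against 1 ng numbered 1, against 3 with no filter, 3 with DESeq2 and 0 to 1 with 1 replicate left out. On the RNA slope 0 members were called, against 1 with no filter and 1 with DESeq2, in both Stab2.

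With the replicate block 1161 genes were called at 100 T cells against 0.1 ng, 29 on the T cell slope and 209 on the RNA slope. Replicate numbers showed no pairing of the libraries over genes with a mean of at least 5 CPM: residual correlations of 44 same-numbered pairs ran from -0.0246 to 0.0256. That check could not exclude a pairing that acts on few genes. The block changed no member's call.

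In all, 131 of 168 recomputed counts of calls stayed within 1.5 times, and no called change turned sign. Without division by length, Stab2 passed the Olfr level in 10 and Vwf in 11 T cell libraries. With the 99th percentile of Olfr genes, Cdh5 and Pdgfrb passed in 4 RNA libraries each. Few counts limit Ccl19, Madcam1, Sparc and Cdh5.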
